A study of Mus musculus with 8 samples.

Results

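The DNA damage response genes described here are Atm, Atr, Brca1, Brca2, Trp53bp1, Mdc1, Chek1, Chek2 and Topbp1, which were chosen by name. A search of the gene symbols of the array gave 26 probe sets for these 9 genes, of 45101 probe sets in all. Brca2, Mdc1 and Chek2 had 1 probe set each, Atm and Topbp1 had 2, Atr had 3, Brca1 and Chek1 had 5, and Trp53bp1 had 6. A probe set is a group of short oligonucleotides read together as 1 transcript measurement, and its level is given on the log2 scale, so that a step of 1 is a doubling. One probe set per gene, called the main probe set, was taken as one without a cross-hybridisation suffix where the gene had one, and then as the one with the highest mean level. Levels of different probe sets are not compared, since each binds its target with its own strength.

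Testes of mice aged 23 days after birth gave the RNA, and each sample went onto an Affymetrix Mouse430_2 array of its own. The labels give 5 arrays of wildtype testis (replicates 1, 2, 4, 6 and 7) and 3 of Ctcfl mutant testis (replicates 3, 5 and 8). Ctcfl encodes a testis paralog of the zinc finger protein CTCF. In the study's text the controls are heterozygous littermates (Ctcfl del/+) and the mutants homozygous (Ctcfl del/del), and the deleted allele lacks the first exons of Ctcfl, so the controls carry 1 copy of it. The name wildtype is kept here because the labels use it. The allele was made by homologous recombination in ES cells of a strain other than C57/Bl6, and targeted cells were injected into C57/Bl6 blastocysts. According to the study's text the mice were kept on a C57/Bl6 background. No further treatment is given for either group. The labels do not say that each sample was a separate animal, so the p-values measure only the spread between these samples.

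The 9 genes belong to the signalling pathway that finds broken or stalled DNA, halts the cell cycle and directs repair. ATM and ATR are large kinases at its head. ATM answers to double-strand breaks and ATR to single-stranded DNA. MDC1 and 53BP1 (encoded by Trp53bp1) gather on the chromatin beside a break, TOPBP1 switches ATR on, and CHK1 and CHK2 carry the signal to the cell cycle machinery. BRCA1 and BRCA2 direct the repair of breaks by homologous recombination. In the male germ line the same proteins act without any outside damage, because spermatocytes cut their own DNA to start recombination. In pachytene spermatocytes ATR, TOPBP1, MDC1 and BRCA1 also work on the unpaired X and Y chromosomes, which are silenced there.

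Of the 45101 probe sets, 64 were controls. The array medians lay between 6.40 and 6.45, and with 8 arrays in all the intervals given below are wide for some probe sets. No probe set carries the symbol Ctcfl, and the genotype of a sample therefore rests on its label alone. Markers of testis cells were averaged over the 8 arrays and set against the median of all probe sets. Above it lay 8 of 8 measured spermatocyte markers, 8 of 9 spermatid markers and 8 of 8 Sertoli cell markers. Wildtype replicate 7 and mutant replicate 8 stood apart, with scores of 40.2 and 38.2 on the first principal component against -24.8 to -3.10 on the other 6 arrays. The mean level of 9 spermatid markers was 11.04 and 10.52 on these 2 arrays and 8.24 to 8.98 on the others. The mean level of 5 measured fat markers was 7.87 and 7.95 against 5.74 to 6.57. Spermatocyte markers differed less, with 11.07 and 10.94 against 10.82 to 10.99. Where blocking or removing this pair turned the direction of a genotype difference, both values are given with the comparison. Spermatogonial markers (7 measured) had mean levels of 8.22, 8.23 and 7.99 in mutant replicates 3, 5 and 8 and 7.95 to 8.08 in wildtype. None of the 7 passed a limma adjusted p of 0.05. Before adjustment 2 had a limma p under 0.05, against 3.47% of all probe sets. So did 1 marker each of the spermatocyte, Sertoli cell and Leydig cell lists, with 8, 8 and 5 measured. Among the 7, Zbtb16 was lower in mutant testis (-0.058) and the others were higher. In RNA of a whole organ, fewer cells of a type and less RNA per cell cannot be told apart.

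Most of the probe sets varied from array to array about as much as those of the whole table. Their median range over the 8 arrays was 0.34, against 0.38 for all probe sets. Of the 26, 23 ranged over less than 0.6 on the log2 scale. The share of all probe sets under 0.6 was not counted, so that number is not read as a trait of these genes. The remaining 3 ranged over at least 1.5, where 1.25% of all probe sets did. They belonged to Atm and Trp53bp1, and they are described after the other genes. All 9 main probe sets had mean levels above the median of all probe sets, as did 16 of the 26 (50.0% of all probe sets lie above it by construction). The main ones were picked in part for a high level, so the 50.0% is not a like share for them.

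Among main probe sets Atr had a range of 0.19 and the other head kinase, Atm, one of 2.07. The main Atr probe set 1427197_at read 12.45, 12.37, 12.29, 12.31 and 12.32 in wildtype replicates 1, 2, 4, 6 and 7. It read 12.30, 12.30 and 12.25 in mutant replicates 3, 5 and 8. The lowest array was mutant replicate 8 and the highest wildtype replicate 1, with the groups overlapping. The other 2 Atr probe sets ranged more widely, over 0.59 (1438921_at) and 0.36 (1445091_at). On 1438921_at wildtype replicate 7 was highest at 8.65 and mutant replicate 8 lowest at 8.07, so the 2 arrays that stood apart lay at opposite ends. On 1445091_at both lay below the other 6 arrays. Across the 6 other arrays Pearson r among the 3 Atr probe sets was 0.51 to 0.87, given as a description over few arrays.

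Mdc1, the adaptor that binds phosphorylated histone H2AX, read 10.44, 10.45, 10.48, 10.41 and 10.62 in wildtype and 10.33, 10.43 and 10.45 in mutant testis. Wildtype replicate 7 was the highest array and mutant replicate 3 the lowest. Topbp1 read 10.62, 10.71, 10.56, 10.47 and 10.51 in wildtype and 10.56, 10.46 and 10.42 in mutant testis on its main probe set 1452241_at. Its lowest values were those of mutant replicates 5 and 8, and mutant replicate 3 lay among the wildtype arrays.

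Apart from Atm, the effector kinases had the widest ranges among main probe sets, 0.57 for Chek1 and 0.55 for Chek2. Chek1, which acts downstream of ATR, read 6.58, 6.77, 6.36, 6.39 and 6.93 in wildtype and 6.62, 6.71 and 6.80 in mutant testis on its main probe set 1450677_at. Wildtype replicate 7 and mutant replicate 8 were the 2 highest arrays, and wildtype replicates 4 and 6 the lowest. The other 4 Chek1 probe sets did not follow it: across the 6 arrays that lay together, Pearson r among the 5 probe sets ran from -0.83 to 0.25 over 10 pairs and was above 0 in 4 of them. Of the 5, 3 had levels below the median of all probe sets. Chek2, which acts downstream of ATM, read 6.61, 6.65, 6.40, 6.42 and 6.51 in wildtype and 6.52, 6.95 and 6.51 in mutant testis. One array, mutant replicate 5, lay 0.31 above the next.

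Brca2, which acts in homologous recombination, read 10.47, 10.55, 10.53, 10.55 and 10.64 in wildtype and 10.55, 10.39 and 10.69 in mutant testis. Its 2 highest arrays were wildtype replicate 7 and mutant replicate 8, the same that stood apart for spermatid and fat markers, and mutant replicate 5 was lowest. Among the main probe sets, Chek1 and Brca2 were the ones with both of these arrays above the other 6, a position held by 8.6% of all probe sets. None had both below, where 10.3% of all probe sets did. The part of cell mix in these positions was not tested.

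**Figure D1:**
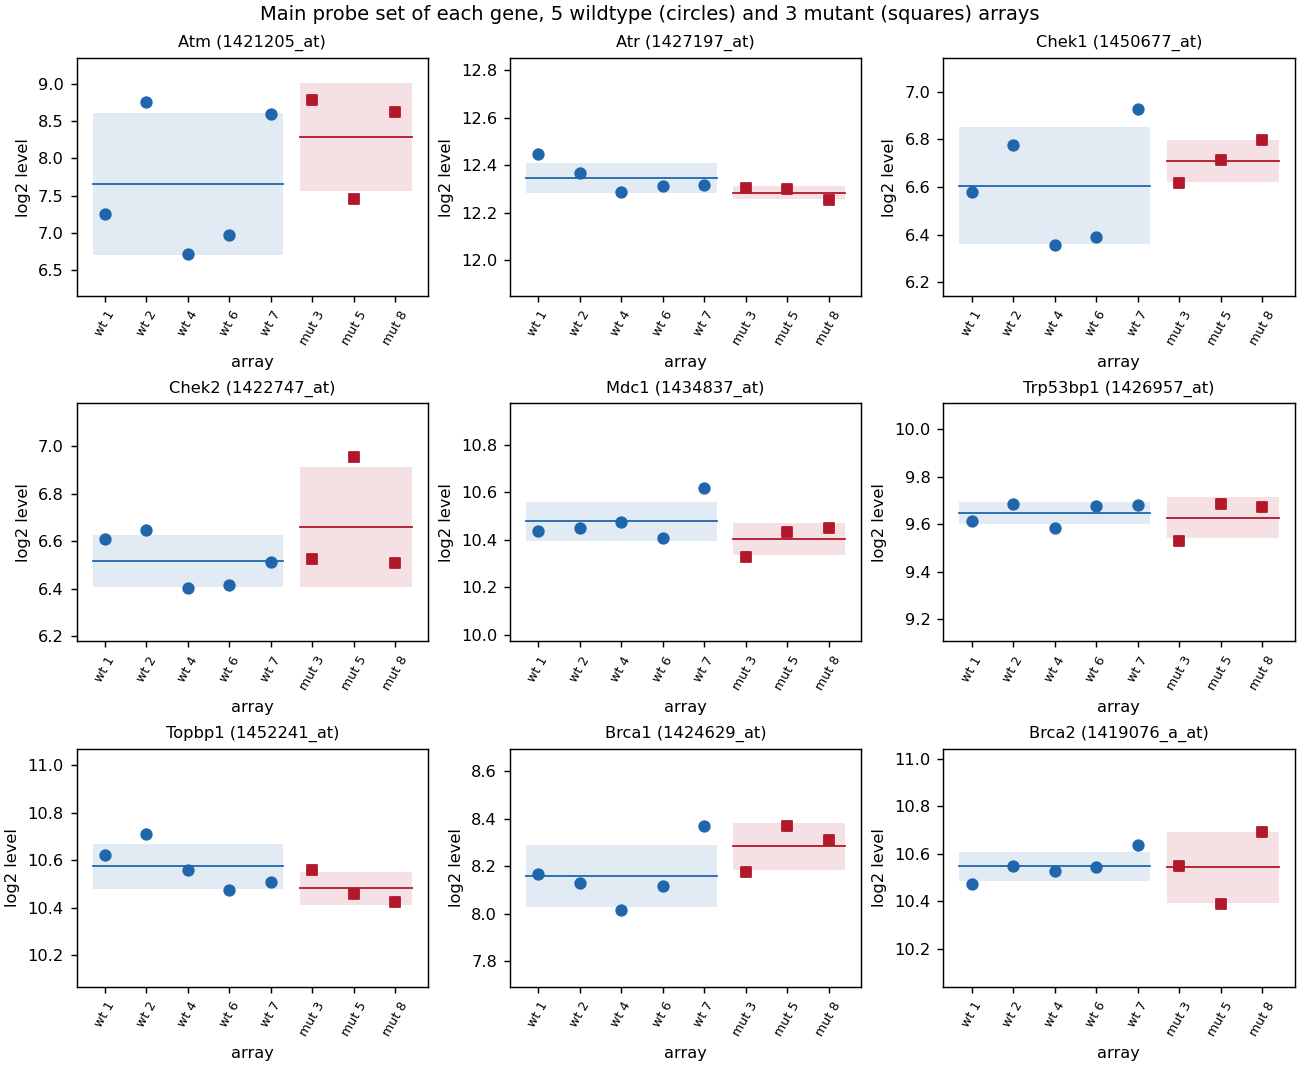
Log2 level (vertical axis) of the main probe set of each of the 9 genes on each array (horizontal axis). Blue circles are the 5 wildtype and red squares the 3 mutant arrays, lines are group means and bands 1 SD on either side. The vertical axis spans 1 log2 unit in every panel except that of Atm, where it is wider. The groups overlap in all 9 panels, and Atm falls into a high and a low set of arrays that does not follow genotype.

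Atm was measured at 2 levels by one of its probe sets and not by the other. On the main probe set 1421205_at the wildtype arrays read 7.25, 8.76, 6.71, 6.97 and 8.60, and the mutant arrays 8.78, 7.46 and 8.62. Wildtype replicates 2 and 7 and mutant replicates 3 and 8 were high, and wildtype replicates 1, 4 and 6 and mutant replicate 5 were low, with a gap of 1.14 between the sets. From the lowest to the highest array the level spanned 2.07 on the log2 scale, a signal ratio of 4.20-fold. On the second probe set, 1428830_at, the same arrays read 7.54, 7.63, 7.66, 7.54 and 7.71 in wildtype and 7.68, 7.70 and 7.64 in mutant testis. There the whole range was 0.17, and the high and low sets of the first probe set did not separate. The 2 probe sets of Atm thus gave different accounts of the same RNA samples. The signal of a probe set depends on the amount of transcript and on how well the transcript binds the probes, and which of these differed between the arrays was not tested.

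Trp53bp1 had the same kind of split on 2 of its 6 probe sets, between other arrays and over a wider span. Probe set 1457812_at read 7.08, 4.38, 6.73, 4.12 and 7.70 in wildtype and 4.04, 6.61 and 7.45 in mutant testis. Probe set 1442316_x_at read 7.28, 3.83, 7.14, 4.38 and 7.86 in wildtype and 4.16, 6.77 and 7.66 in mutant testis. On both, wildtype replicates 2 and 6 and mutant replicate 3 were low and the other 5 arrays high. The gaps were 2.23 and 2.39 and the full ranges 3.66 and 4.03 on the log2 scale. No fold is given, since the low arrays lay between 3.83 and 4.38, below the array medians, and the levels used here carry no call of signal above background. As for Atm, amount of transcript and binding to the probes were not told apart. The suffix of 1442316_x_at marks a probe set that may also bind other transcripts, while 1457812_at carries no such mark.

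The other 4 Trp53bp1 probe sets did not show these 2 levels. The main probe set 1426957_at read 9.62, 9.69, 9.58, 9.68 and 9.68 in wildtype and 9.53, 9.68 and 9.67 in mutant testis, a range of 0.16. Probe set 1426956_a_at ranged over 0.31, 1435609_at over 0.24 and 1446100_at over 0.30. Neither 2-level pattern followed genotype. For Atm, 2 of 5 wildtype and 2 of 3 mutant arrays were high, and for Trp53bp1 it was 3 of 5 and 2 of 3. The 2 patterns also differed from each other, since wildtype replicate 2 and mutant replicate 3 were high for Atm and low for Trp53bp1.

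**Figure D2:**
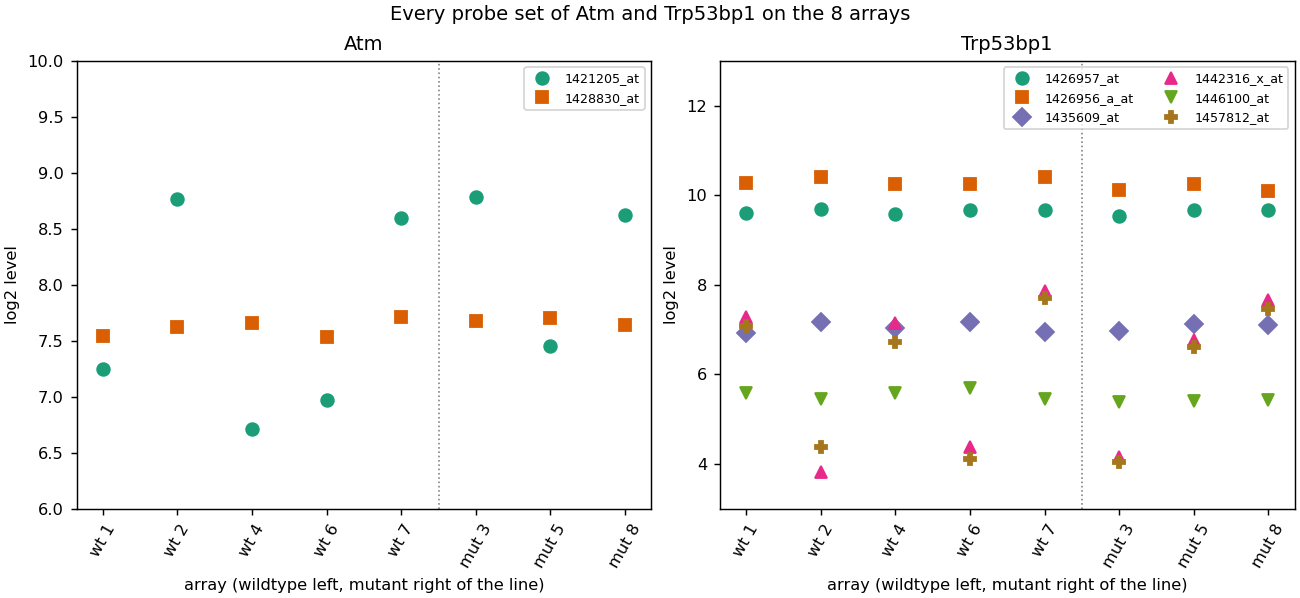
Log2 level (vertical axis) on each array (horizontal axis) for the 2 probe sets of Atm and the 6 of Trp53bp1, with wildtype arrays left and mutant arrays right of the dotted line. Probe set 1421205_at of Atm and probe sets 1457812_at and 1442316_x_at of Trp53bp1 fall into a high and a low set of arrays in both genotypes, whereas the other 5 probe sets lie nearly level.

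Other probe sets that separated the arrays in the same way were then looked for in the whole table, a search made after these values had been seen and given without a test. A probe set was counted when all 4 high arrays of Atm lay at least 0.5 above, or all at least 0.5 below, the 4 low arrays. There were 19 such probe sets, that of Atm included, of which 13 could be placed on a chromosome. Of these 12 were on chromosome 9, the chromosome of Atm, where 5.4% of all placed probe sets lie. They belonged to 9 genes within 102 protein-coding genes before Atm and 52 after it, in a chromosome with 1201. The exception was Cep192, on chromosome 18. The stretch held 260 probe sets, so most of those in it did not separate the arrays.

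The neighbours moved in both directions. Dixdc1, 25 genes before Atm, had a gap of 1.79 on probe set 1425256_a_at, with levels of 5.33 to 5.51 on the low and 7.30 to 7.50 on the high arrays. Ppcdc, an enzyme of coenzyme A synthesis 52 genes after Atm, had a gap of 1.55. In contrast 1810046K07Rik, 10 genes before Atm, was lower by at least 1.32 on the arrays where Atm was high. Also lower there were 2 further probe sets of Dixdc1, with gaps of 0.75 (1443957_at) and 0.70 (1444395_at). Within Dixdc1 the direction therefore depended on the probe set. Fxyd2 (1.20), Alg9 (0.93), Rps25 (0.82) and Rcn2 (0.71) went the same way as Atm. With a smaller gap of 0.3 there were 34 probe sets, 22 of 26 placed ones on chromosome 9. With a gap of 1 there were 6, with all 5 placed ones there.

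For the low and high arrays of Trp53bp1 the same search gave 5 probe sets, 4 of them placed and all 4 on chromosome 2, where 8.11% of placed probe sets lie. They were the 2 of Trp53bp1 itself, 1 of Ppip5k1, which lies 2 protein-coding genes away, and 1 of Tmem87a, 20 genes away on the other side. Ppip5k1, an inositol pyrophosphate kinase, was higher by at least 0.56 on the arrays where Trp53bp1 was high, and Tmem87a was lower by at least 0.54. With a gap of 0.3 there were 9 probe sets, and all 7 that could be placed were on chromosome 2. With a gap of 1 the 2 of Trp53bp1 were left. Atr, Chek1 and Topbp1 also lie on chromosome 9, outside the stretch around Atm, and none of their probe sets separated the arrays as Atm did.

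**Figure D3:**
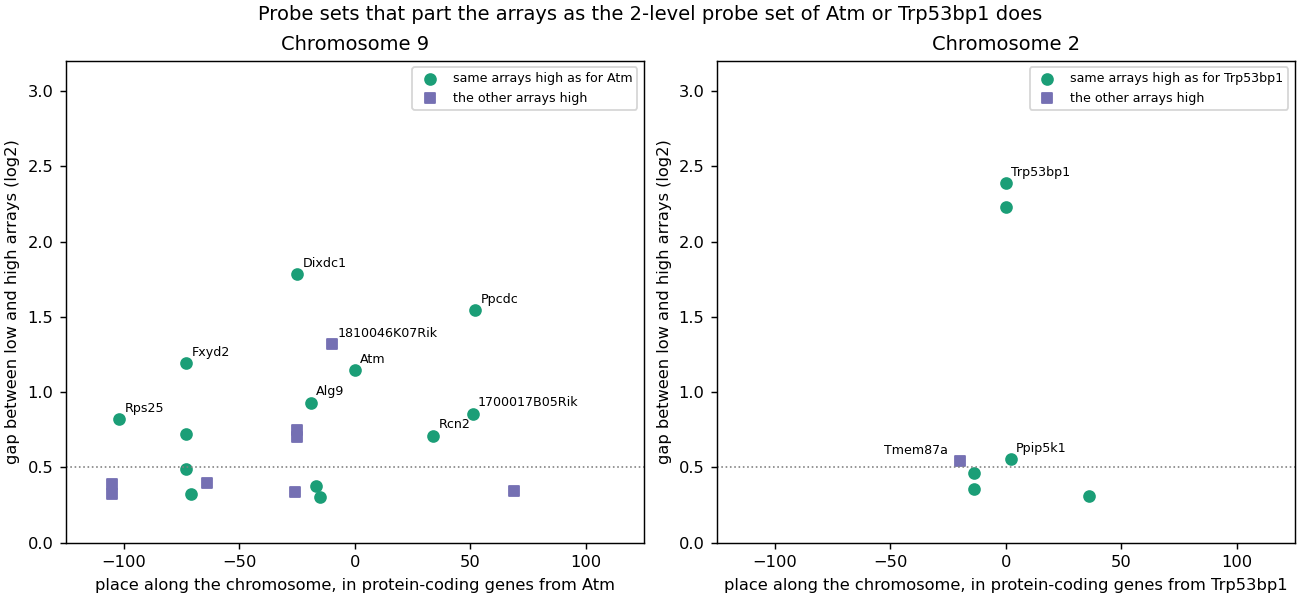
Gap on the log2 scale between the low and the high arrays (vertical axis) for probe sets that part the arrays as Atm 1421205_at (left) or Trp53bp1 1457812_at (right) does with a gap of at least 0.3, against their place in protein-coding genes from that gene (horizontal axis). Green circles are high on the same arrays, purple squares on the other arrays, and the dotted line marks a gap of 0.5. Only probe sets with a place in the gene order of chromosome 9 (left) or chromosome 2 (right) are drawn. Those drawn above the line lie from 102 genes before to 52 after Atm and from 20 before to 2 after Trp53bp1. At a gap of at least 0.5, 6 without a chromosome and 1 on another chromosome are left out for Atm. For Trp53bp1 1 without a chromosome is left out.

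The study's own comparison is between genotypes. No probe set of the 9 genes passed a limma adjusted p of 0.05, and neither did any of the 45101 (0.0%). No adjusted p was below 1.0 after rounding. Before adjustment, limma gave 2 of the 26 probe sets a p under 0.05, both of Brca1, against 3.47% of all probe sets (1564), and a one-way comparison without shared variance gave 3, against 3.79% of all. With 64 added on the linear scale limma also gave 3, against 3.66% of all. The third under both was 1426956_a_at of Trp53bp1, lower in mutant testis. Both Brca1 probe sets were higher in mutant testis, as 1.76% of all probe sets were at that p, and no member was lower, where 1.7% were. The 26 differences had a median of 0.033 and the 9 main ones a median of -0.0041, with 0.0032 over all probe sets. Of the 26, 15 were higher and 11 lower in mutant testis. The groups did not overlap for 2 of the 26, against 2.7% of all, with 1 member higher (1.38% of all) and 1 lower (1.31%).

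Brca1 was the gene with both of these probe sets. Probe set 1451417_at read 6.74, 6.80, 6.62, 6.70 and 6.75 in wildtype and 6.84, 6.98 and 6.87 in mutant testis. All 3 mutant arrays lay above all 5 wildtype arrays, the highest of which was 0.042 below the lowest mutant array. Its group means were 6.72 ± 0.068 for wildtype (SD, n = 5) and 6.90 ± 0.073 for mutant (SD, n = 3). The difference was 0.18 (SE 0.068), with a limma p of 0.0269 and an adjusted p of 1.0.

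The second, 1424630_a_at, read 5.80, 5.64, 5.75, 5.70 and 5.52 in wildtype and 5.89, 6.11 and 5.78 in mutant testis, with mutant replicate 8 below wildtype replicate 1. It differed by 0.24 (SE 0.094), with a limma p of 0.0278 and an adjusted p of 1.0. The main Brca1 probe set, 1424629_at, read 8.17, 8.13, 8.02, 8.12 and 8.37 in wildtype and 8.17, 8.37 and 8.31 in mutant testis. The groups overlapped, and it differed by 0.12 (SE 0.088), with a 95% interval from -0.073 to 0.32. Of the other 2, 1443763_at differed by 0.071 and 1427698_at by -0.075, so 4 of 5 Brca1 probe sets were higher and 1 lower in mutant testis. Without mutant replicate 5 the difference was 0.14 for 1451417_at, with a limma p of 0.112. For 1424630_a_at it was then 0.15 in place of 0.24, with a limma p of 0.147. With 64 added on the linear scale, which compresses low levels, 1424630_a_at differed by 0.11, and its mean level lies below the median of all probe sets. Mean levels of spermatogonial markers were highest in mutant replicates 3 and 5 (8.22 and 8.23). In mutant replicate 8 their mean (7.99) lay within the wildtype span. Sertoli cell markers were likewise highest in mutant replicates 3 and 5 (8.67 and 8.57, against 8.42 to 8.52 in wildtype). The part of either cell type in the Brca1 differences was not tested. For 1451417_at the limma p was also above 0.05, at 0.0540, without wildtype replicate 4. It was 0.0504 in limma with a variance trend and robust prior. For 1424630_a_at the limma p was 0.0536 without wildtype replicate 2 and 0.0549 without wildtype replicate 7.

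The other probe set without overlap was 1446100_at of Trp53bp1, which was lower in mutant testis. It read 5.59, 5.44, 5.58, 5.69 and 5.44 in wildtype and 5.39, 5.40 and 5.43 in mutant testis, and all arrays were below the array medians. The difference was -0.14 (SE 0.075), with a limma p of 0.0889. The margin between the groups was 0.00475, between mutant replicate 8 and wildtype replicates 2 and 7. Probe set 1426956_a_at differed by -0.16 (SE 0.074), with a limma p of 0.0550, and the main one by -0.020 (SE 0.065).

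For the remaining genes the 95% intervals before adjustment hold for the main probe sets and not for the gene as a whole. On these the intervals ran from -0.20 to 0.080 for Atr and from -0.23 to 0.083 for Mdc1. They ran from -0.26 to 0.074 for Topbp1 and from -0.17 to 0.13 for Trp53bp1. For Brca2 the interval was -0.18 to 0.17. The effector kinases had wider intervals, with -0.19 to 0.40 for Chek1 and -0.11 to 0.39 for Chek2. Other probe sets could reach further. The interval was -0.39 to 0.12 for Atr 1438921_at and -0.13 to 0.23 for Topbp1 1458480_at. For Trp53bp1 1426956_a_at it was -0.33 to 0.0042. For Atm the interval was -0.51 to 1.76 on the main probe set and -0.089 to 0.21 on 1428830_at, so the precision for this gene depended on the probe set. The 2-level probe sets of Trp53bp1 had intervals of -2.13 to 2.19 and -2.26 to 2.45, too wide to be of use for genotype.

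**Figure D4:**
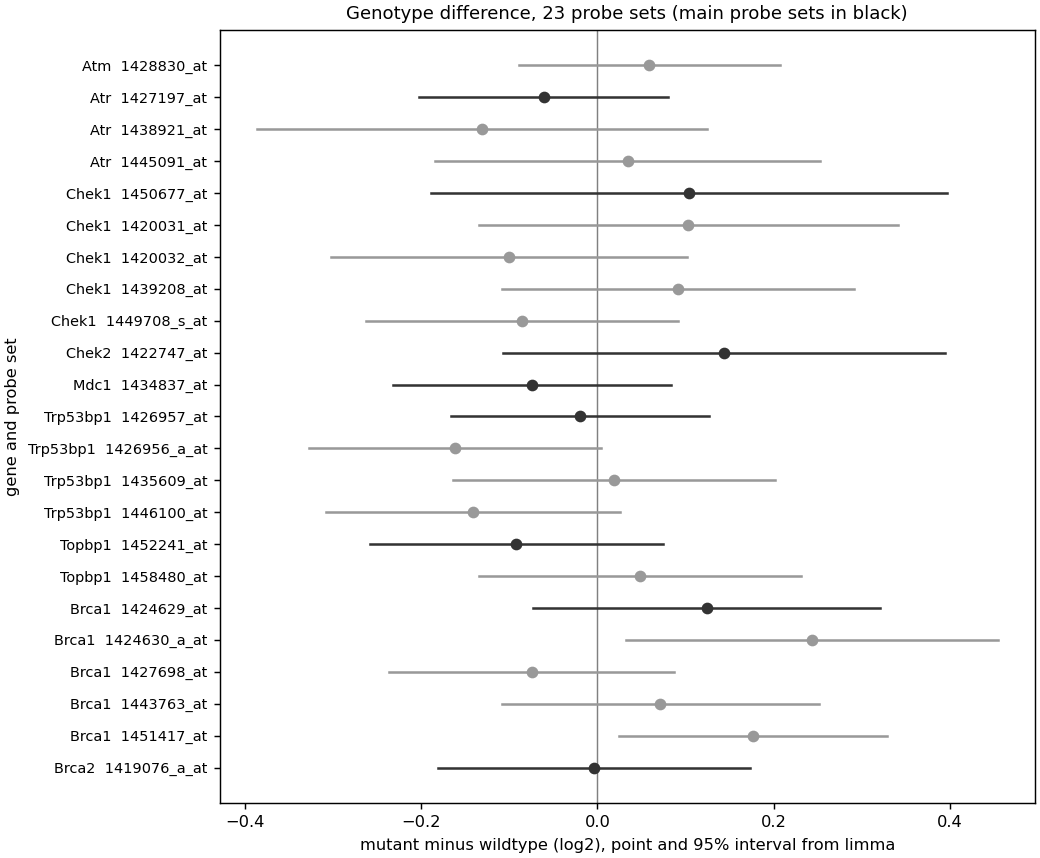
Mutant minus wildtype difference on the log2 scale (horizontal axis) for the 23 probe sets without 2 levels, by gene (vertical axis). Points are limma estimates, lines 95% intervals and black marks the main probe sets, with 5 wildtype and 3 mutant arrays. The intervals of 2 Brca1 probe sets lie above 0 before adjustment and all others include 0.

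With wildtype replicate 7 and mutant replicate 8 as a block, the same count of 2 of 26 had an unadjusted p under 0.05, against 5.86% of all probe sets, and again no adjusted p of the 26 passed. Brca1 1424630_a_at then differed by 0.27 (SE 0.076), with a limma p of 0.00492 and an adjusted p of 0.803. Without both arrays 2 of the 26 again had a limma p under 0.05 before adjustment, against 6.55% of all. The direction turned for 2 probe sets with the block, 1442316_x_at (-0.19 against 0.099) and 1457812_at (-0.25 against 0.032) of Trp53bp1. Without the pair it turned for these 2 (-0.19 and -0.26) and for 3 more, Trp53bp1 1435609_at (-0.029 against 0.018), Atr 1438921_at (0.048 against -0.13) and Topbp1 1458480_at (-0.028 against 0.048). Without the pair the groups did not overlap for 6 of the 26, against 14.9% of all probe sets with 4 against 2 arrays.

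The main probe sets of the members did not rise and fall as one set from array to array. Across the 6 arrays that lay together, Pearson r between main probe sets ranged from -0.85 for Brca2 with Chek2 to 0.91 for Brca1 with Chek2. Brca1 and Brca2 had an r of -0.82. These are descriptions over 6 arrays of which 2 were mutant. Probe sets of a single gene could differ as much, with r of -0.83 to 0.25 for Chek1 against 0.51 to 0.87 for Atr. The values therefore do not tell whether the transcripts themselves moved together. Among the 19980 to 19982 named probe sets above the median level compared with each member, the one most like Brca1 was that of Cnot10 (r = 0.993), and for Chek1 it was Rab18 (r = 0.999). For Topbp1 it was 1110001A07Rik (r = 0.991). With so few arrays many probe sets come this close: between 23 and 189 per member had an r over 0.95.

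Other genes of the DNA damage response were examined by role, 58 in all, of which 51 had a probe set under their own symbol. None passed a limma adjusted p of 0.05, as over the whole table. At an unadjusted p of 0.05 there was 1 (1.96%), against 3.47% of all probe sets. Of the 51, 27 were higher and 24 lower in mutant testis, and the median difference was 0.0034.

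The 1 was Clspn, whose product claspin holds CHK1 for activation by ATR. Clspn had 2 probe sets, of which only the main one was examined, as for all of these other genes. Its main probe set 1456280_at read 7.82, 7.82, 7.78, 7.71 and 7.71 in wildtype and 7.90, 7.98 and 7.96 in mutant testis, without overlap. The difference was 0.18 (SE 0.062), with a limma p of 0.0167 and an adjusted p of 1.0. The limma p was 0.0565 without mutant replicate 5 and 0.0738 without wildtype replicate 7 and mutant replicate 8. The part of the spermatogonial markers in this difference was not tested. No other of the 51 genes had groups without overlap. The further genes named by role were chosen after their values were seen, as the ends of each role or as familiar members of it.

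By role, the 8 genes of break sensing, among them Mre11a, Rad50 and Nbn of the complex that calls ATM to breaks, differed by -0.067 to 0.061. H2afx, the histone that ATM and ATR mark, had a level of 10.99 ± 0.11 across the wildtype arrays (SD, n = 5) and of 11.02 ± 0.029 across the mutant arrays (SD, n = 3). The 12 measured genes of ATR activation and the checkpoint clamp ran from -0.082 for Hus1 to 0.18 for Clspn. The 9 of ubiquitin signalling and 53BP1 effectors ran from -0.10 for Fam175a, a scaffold of the BRCA1-A complex, to 0.12 for Ube2n, which builds the ubiquitin chains at breaks.

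The 10 partners of BRCA1 and BRCA2 were 5 higher and 5 lower, from -0.049 for Rbbp8 to 0.17 for Dmc1, a recombinase of meiosis. The 10 measured genes downstream of the checkpoint kinases were 3 higher and 7 lower, from -0.15 for Trp63 to 0.12 for the phosphatase Cdc25a. Main probe sets of Trp53, Trp63, Trp73, Mdm2 and Cdc25b read below the array medians, with wildtype means of 4.53, 5.57, 5.14, 4.08 and 5.68. These genes had 7, 4, 2, 3 and 1 probe sets. Any others were not examined, so the low levels belong to the probe sets chosen. All of these genes were among the lower ones, so the count of directions rests largely on low levels. Cdkn1a, the p53 target that halts the cell cycle, differed by -0.0039 (SE 0.10). Of the sex chromosome silencing list, Hormad2 differed by -0.095 and Setdb1 by 0.089, and the other 2 genes had no probe set under their symbol alone.

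**Figure D5:**
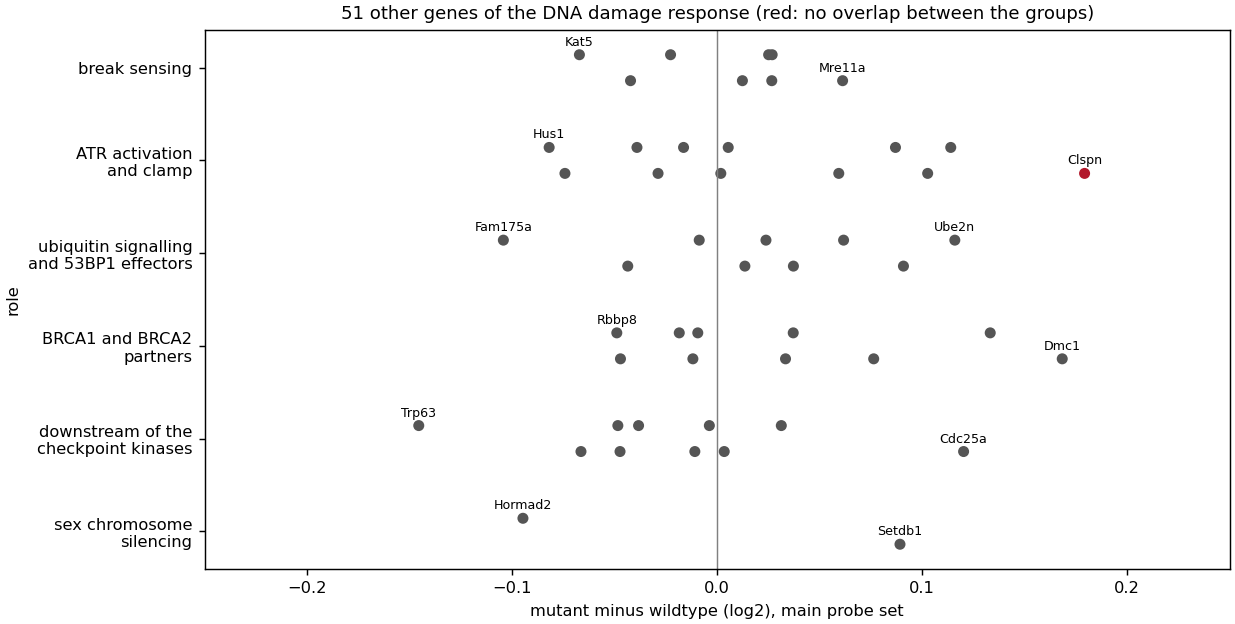
Mutant minus wildtype difference on the log2 scale (horizontal axis) for the main probe sets of 51 other DNA damage response genes, grouped by role (vertical axis), with the lowest and highest of each role named. Each point is 1 gene, and red marks Clspn, the gene whose 5 wildtype and 3 mutant arrays did not overlap. All points lie between -0.15 and 0.18.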

How the data were processed

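The authors processed the scanned arrays by RMA and quantile normalisation in R/Bioconductor and deposited 1 log2 level per probe set and array, without pooling. Tool versions, genome build and annotation release are not given in the sources used here. The deposited tables also hold the authors' own comparison of the genotypes (differences, fold values and p-values), which was not used.

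The log2 levels were taken as deposited, with no filter. All 45101 probe sets were fitted with limma 3.58.1 (lmFit and eBayes, R 4.3.3), mutant against wildtype, two-sided, with Benjamini-Hochberg adjustment over all of them. The fit was tested on simulated data. Chromosomes and gene order came from a RefSeq table (GRCm38.p6) through the Entrez IDs, of which 86.5% matched. Other steps used Python 3.11.15 with pandas 2.3.3, numpy 2.4.6 and matplotlib 3.10.9.

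All probe sets of the 9 genes are reported. Other response genes were to be named where the main probe set had an unadjusted p under 0.05 without overlap, at most 5 per direction. Further genes and the chromosomal neighbours were named after their values were seen. Members, lists, the pair of arrays taken as a block and the tests were chosen with earlier results of these data known. Alternatives were each array or that pair left out, the block, a level filter, centring, 64 added on the linear scale, array weights, a one-way comparison, a variance trend and robust prior and other probe sets.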

Additional observations from a re-analysis of the deposited data

How the results depend on the processing

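No paired analysis was possible because the labels do not say which samples shared a litter. The study's text calls the groups littermates, and the replicate numbers run from 1 to 8 across both genotypes. The median difference of the 9 genes, -0.0041, lay between -0.034 and -0.0038 under the alternatives and between -0.042 and 0.029 leaving out 1 array. It was positive without wildtype replicate 7 (0.019) or mutant replicate 3 (0.029). Every move was less than 0.092, the median SD between arrays of single main probe sets within a genotype, which is wide for a value this small. The level filter, the one-way comparison and the variance trend with robust prior could not move it. The count of 0 members past an adjusted p of 0.05 held under all alternatives. Over all probe sets it was 1 with the block for wildtype replicate 7 and mutant replicate 8. The 2 members at an unadjusted p of 0.05 became 1 without wildtype replicate 2 or mutant replicate 5, and leaving out any 1 array gave 1 to 2. Without wildtype replicate 2 the 1 was Brca1 1451417_at (limma p 0.0251). Without mutant replicate 5 it was Trp53bp1 1426956_a_at (limma p 0.0329), and neither Brca1 probe set was counted. A count of 2 could also hold other probe sets. Without wildtype replicate 4 it held Brca1 1424630_a_at and Trp53bp1 1426956_a_at (limma p 0.0323 and 0.0496). For all probe sets the count of 1564 became 2956 without the pair, 2644 with the block and 707 above the median level, where fewer were tested, and 1220 to 2649 leaving out 1 array, the last without mutant replicate 8. The 2 members without overlap became 6 without the pair, where fewer arrays were compared, and 1 above the median level, and ranged from 2 to 4 with any 1 array removed, highest without mutant replicate 8, where 11.5% of all probe sets did not overlap. The block gives no value for that count.

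Direction depended on the probe set for 5 genes. Atr was 0.034 on 1445091_at, Brca1 -0.075 on 1427698_at and Topbp1 0.048 on 1458480_at. Chek1 was -0.10 on 1420032_at and -0.085 on 1449708_s_at. Trp53bp1 was 0.018 on 1435609_at, 0.099 on 1442316_x_at and 0.032 on 1457812_at. Without the pair these 3 were -0.029, -0.19 and -0.26, and Topbp1 1458480_at was -0.028, as on the main probe sets in sign. Leaving out 1 array, Brca2 ranged from -0.078 to 0.072, positive without wildtype replicate 7 (0.019) or mutant replicate 5 (0.072). Chek2 ranged from -0.0024 to 0.22, at its lowest without mutant replicate 5, and Trp53bp1 from -0.048 to 0.029, at its highest without mutant replicate 3. Atm stayed positive, from 0.38 to 1.04. The cause was not tested.

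The counts of probe sets that separate the arrays as Atm or Trp53bp1 does rest on gaps chosen after the values were seen. They were 34, 19 and 6 for Atm and 9, 5 and 2 for Trp53bp1 at gaps of 0.3, 0.5 and 1.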
